A study of Mus musculus with 6 samples.

Results

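Chemokine receptors are 7-pass membrane proteins that guide cells along gradients of chemokines. This account follows 8 of them in sorted cells of MMTV-Wnt-1 mammary tumours: the CC receptors Ccr1, Ccr2 and Ccr7, the CXC receptors Cxcr2 and Cxcr4, the fractalkine receptor Cx3cr1, and the atypical receptors Ackr3 and Ccrl2. They were taken by name, as the probe sets to which the platform annotation gives a single one of these symbols. All 8 were on the array, out of 18193 genes named in this way, with 13 probe sets between them. A gene with several probe sets was read from its brightest, by the mean of all 6 arrays.

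MMTV-Wnt-1 mice carry Wnt1 under the promoter of mouse mammary tumour virus, which is active in mammary epithelium, so both populations hold the transgene. From tumours of 3 mice, numbered TG1 to TG3, a population called tumorigenic was sorted as CD24+, Thy+ and CD45-. The population called nontumorigenic is labelled as not that gate, which leaves unclear whether CD45+ cells were part of it. Each population of each mouse was hybridised to 1 Affymetrix array, which gave 3 arrays against 3, and the age of the mice is not given in the labels. Values are log2 expression after RMA, so 1 unit is a doubling, and every difference is the labelled tumorigenic minus the labelled nontumorigenic value. The array medians lay between 4.36 and 4.40.

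Most chemokine receptors couple to inhibitory G proteins, and the arriving cell polarises and moves toward the ligand. Cxcr4 answers to Cxcl12 and is found on many cell types, including epithelial tumour cells. Ccr1, Ccr2 and Cx3cr1 are known from monocytes and macrophages, Ccr2 and Cx3cr1 also from T and NK cells, Cxcr2 from neutrophils, and Ccr7 from dendritic cells and lymphocytes that home to lymph nodes. Ackr3 binds Cxcl12 without classical G protein signalling, and Ccrl2 binds the attractant chemerin and presents it to other cells.

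The receptors fell into distinct patterns on the arrays. Transcripts of Cxcr4 and Ackr3 lay well above the array medians on all 6 arrays. Those of Cx3cr1, Ccr1 and Ccrl2 were raised in mice 1 and 2 under the tumorigenic label, and Ccr2 in mouse 1 alone, while Ccr7 and Cxcr2 stayed near the dim end of the scale everywhere. No receptor passed the test between the labels after adjustment over all genes.

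The sequences before the start sites of Cxcr4 and Ackr3, transcribed on every array, are shown beside those of Ccr1 and Cx3cr1, raised on the same pair of arrays. Each is the 250 bases before the annotated start in RefSeq, assembly GRCm38.p6, read 5′ to 3′ on the gene's own strand. Capitals mark the TATA box core TATAAA, the GC box GGGCGG and GAGGAA, a core of sites for the myeloid factor PU.1, each searched on both strands, so that a match on the other strand is printed as its reverse complement.
Cxcr4, chr1:128592300-128592549, minus strand: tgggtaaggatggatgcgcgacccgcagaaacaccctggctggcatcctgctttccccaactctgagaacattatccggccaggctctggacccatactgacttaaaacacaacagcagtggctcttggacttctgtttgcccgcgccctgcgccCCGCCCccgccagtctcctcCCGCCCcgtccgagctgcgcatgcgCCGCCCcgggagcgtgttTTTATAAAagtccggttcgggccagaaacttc
Ackr3, chr1:90203730-90203979, plus strand: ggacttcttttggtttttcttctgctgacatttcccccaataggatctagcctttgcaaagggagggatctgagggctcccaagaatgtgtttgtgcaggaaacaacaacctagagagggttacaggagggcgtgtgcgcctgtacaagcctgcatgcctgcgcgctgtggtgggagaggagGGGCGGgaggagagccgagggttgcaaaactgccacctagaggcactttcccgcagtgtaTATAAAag
Ccr1, chr9:123968693-123968942, minus strand: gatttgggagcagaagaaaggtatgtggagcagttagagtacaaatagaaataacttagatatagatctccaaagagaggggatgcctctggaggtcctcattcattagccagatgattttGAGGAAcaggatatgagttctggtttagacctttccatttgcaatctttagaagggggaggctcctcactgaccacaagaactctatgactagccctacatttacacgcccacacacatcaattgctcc
Cx3cr1, chr9:120068297-120068546, minus strand: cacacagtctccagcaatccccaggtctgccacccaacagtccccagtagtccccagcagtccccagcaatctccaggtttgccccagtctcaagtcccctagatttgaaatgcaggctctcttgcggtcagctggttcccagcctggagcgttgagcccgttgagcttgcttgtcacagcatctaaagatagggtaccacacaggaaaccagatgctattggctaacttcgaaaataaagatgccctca

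The windows of Cxcr4 and Ackr3 each held a TATA box core and at least 1 GC box, and those of Ccr1 and Cx3cr1 held neither. In Cxcr4 the TATAAA on the gene's strand begins at base -30 and overlaps a second match on the other strand, and 3 GC boxes begin at -95, -75 and -50. In Ackr3 the TATAAA begins at -8 and the GC box at -68. Ccr1 held GAGGAA at -129, and Cx3cr1 held none of the motifs. The window of Cxcr4 had 19 CpG dinucleotides, that of Ackr3 7, of Cx3cr1 4 and of Ccr1 1, and the median over 32841 windows of this length was 6. Of all these windows 12.4% held TATAAA, 32.7% GGGCGG and 23.3% GAGGAA, so matches of each kind are common, and a match is a description of letters only. Windows were found for 7 of the 8 receptors. Among those not printed, 1 window of Ccrl2, raised on the same arrays as Ccr1 and Cx3cr1, held a GC box at -195. The window of Cxcr2 held GAGGAA at -81, and the other Ccrl2 windows and that of Ccr2 held none of the motifs. The presence of a TATA box core or GC box thus did not follow the array patterns throughout.

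Ptprc, which encodes CD45, went against the gate: in mice 1, 2 and 3 it read 10.21, 7.76 and 3.82 on the arrays labelled tumorigenic, against 2.33, 3.59 and 2.51 on the others. Of the markers the gate selects for, Cd24a read 11.85 to 12.84 under the tumorigenic and 12.84 to 12.99 under the nontumorigenic label, and Thy1 read 9.33 to 10.83 and 9.67 to 10.25. The populations are therefore called labelled tumorigenic and labelled nontumorigenic, and each direction is one between labels. The mean of 14 macrophage and monocyte markers was 9.53, 8.20 and 5.46 in labelled tumorigenic mice 1 to 3, and 4.31 to 4.46 in the other population. Of these 13 were tested and 11 had an unadjusted p below 0.05 as higher, beside 5.23% of all genes. Itgam, named after its values were seen, lay below the dim cut, the level of 2.98 under which the lowest 25% of probe sets fall. The mean of 8 T and NK cell markers was 7.36, 4.39 and 3.47, against 4.01 to 4.26, with none of the 8 below that p in either direction. Luminal epithelial markers read 6.65, 8.45 and 8.46 on average, against 9.79 to 10.09, so epithelial transcripts were present on every array. Of the 7 luminal markers 4 had an unadjusted p below 0.05 as lower, beside 3.27% of all genes. None of the 6 basal, 6 fibroblast, 7 dendritic cell or 3 B cell markers tested passed that p. Fibroblast markers averaged 11.08, 11.08 and 9.23 against 9.93, 10.73 and 10.46, lowest in labelled tumorigenic mouse 3. The 18S rRNA control read 7.15 ± 0.75 under the tumorigenic and 8.72 ± 0.23 under the nontumorigenic label (SD, n = 3), and the 3′ minus 5′ difference of the Gapdh controls reached 6.597 in labelled tumorigenic mouse 2, against 2.41 to 3.81 elsewhere.

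Across the series, 15027 genes were tested with limma and 0 (0%) had an adjusted p below 0.05, while 1277 (8.5%) had an unadjusted p below 0.05. Of the 8 receptors 7 were tested and 0 passed after adjustment. Cx3cr1 and Ccr1 had an unadjusted p below 0.05, both as higher under the tumorigenic label, where 5.23% of all genes did; none was lower, where 3.27% of all genes were. The groups did not overlap in the same pair, again as higher, against 6.9% of all genes as higher and 5.59% as lower. All 7 differences were positive, as were 50.7% over all genes, and their median was 1.51 log2 units against 0.0051 over all genes. By mouse the median was 3.92, 0.60 and 0.015 in mice 1 to 3. Cxcr2 lay below the dim cut of 2.98 and was not tested, and Ccr2, at a mean of 2.99, passed that cut only through 1 bright array. Ccr1 likewise passed only through labelled tumorigenic mice 1 and 2, so its place in these counts, and the counts and median over the receptors that passed, are a description and no support. Without the dim filter its unadjusted p by limma was 0.0502.

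**Figure D1:**
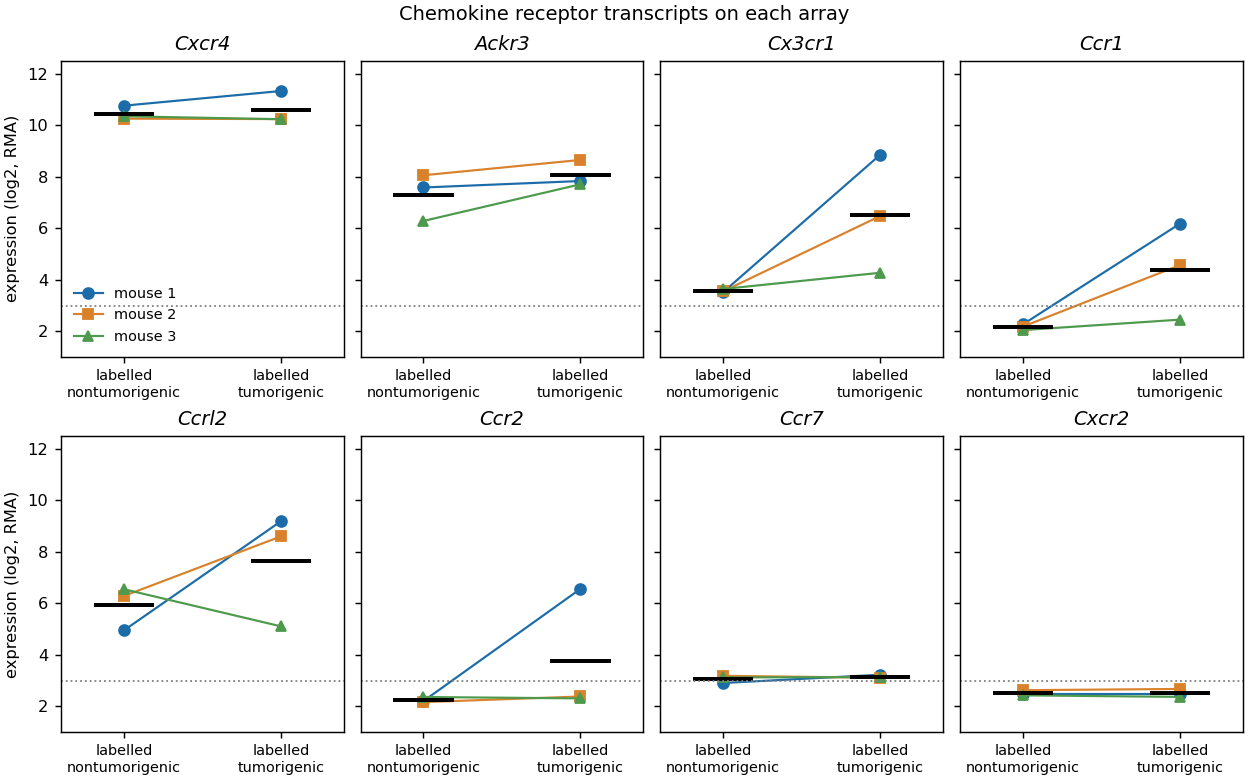
Expression (log2, RMA) of the 8 receptors on each array, labelled nontumorigenic at left and labelled tumorigenic at right; lines join the populations of a mouse, black bars are means of 3 arrays and the dotted line is the dim cut at 2.98. Cxcr4 and Ackr3 are above 6 on every array, while the blue (mouse 1) and orange (mouse 2) lines climb for Cx3cr1, Ccr1 and Ccrl2, and only the blue line for Ccr2.

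Cxcr4, the receptor for Cxcl12, was bright on every array, with little between the labels. In mice 1, 2 and 3 it read 11.34, 10.24 and 10.24 on the arrays labelled tumorigenic, and 10.76, 10.26 and 10.35 on those labelled nontumorigenic. The labels overlapped, and mouse 1 was highest in both populations. Means of 10.61 ± 0.63 and 10.46 ± 0.27 (SD, n = 3) lay 0.15 log2 units apart, and the 95% interval ran from -0.70 to 0.99 (adjusted p = 0.930 by limma). The sign of that small difference rested on mouse 1: without its labelled tumorigenic array it was -0.22, and in mice 1 to 3 the paired differences were 0.57, -0.016 and -0.11.

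Ackr3, the atypical receptor that removes Cxcl12 from the surroundings of a cell, lay higher under the tumorigenic label within each mouse, but the labels overlapped across mice. It read 7.83, 8.65 and 7.71 on the arrays labelled tumorigenic and 7.58, 8.06 and 6.28 on those labelled nontumorigenic. The overlap came through mouse 2, whose labelled nontumorigenic array exceeded the other mice's labelled tumorigenic ones. Means of 8.06 ± 0.51 and 7.31 ± 0.92 (SD, n = 3) lay 0.76 log2 units apart (SE 0.51), with adjusted p = 0.717 by limma. The paired differences were 0.25, 0.60 and 1.43 in mice 1 to 3. Endothelial markers moved with this label: 9 of 10 tested had an unadjusted p below 0.05 as higher, beside 5.23% of all genes. Their mean was 7.40, 7.86 and 7.13 under the tumorigenic and 6.31, 5.61 and 5.73 under the nontumorigenic label. Under the nontumorigenic label it was lowest in mouse 2, where Ackr3 was highest. The brightest endothelial markers, the angiopoietin receptor Tek and the related Tie1, differed by 1.37 and 2.11 log2 units. The median paired difference of the basal markers was -0.30, 0.13 and 1.28 in mice 1 to 3. The part of endothelial or basal transcripts in the Ackr3 values was not tested. Without the labelled nontumorigenic array of mouse 3, the lowest of the 6, the difference was 0.25. The probe set is of a type that can match more than 1 transcript (its name ends in _s_at).

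Cxcl12, the ligand that Cxcr4 and Ackr3 share, was likewise present in both populations. It read 7.67, 8.72 and 6.88 under the tumorigenic and 6.66, 7.83 and 7.33 under the nontumorigenic label. The labels overlapped, and its label means lay 0.48 log2 units apart (SE 0.53, adjusted p = 0.827 by limma). Its 3 probe sets gave between -0.039 and 1.46, so the size depends on the probe set. Cxcl11, which also binds Ackr3, lay between 2.76 and 3.00 on every array, below the dim cut on 5 of the 6, and was not tested.

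Cx3cr1, the receptor for the membrane-bound chemokine fractalkine, had the largest difference of the receptors tested. In mice 1, 2 and 3 it read 8.85, 6.47 and 4.26 on the arrays labelled tumorigenic, and 3.51, 3.54 and 3.63 on those labelled nontumorigenic. All 3 labelled tumorigenic arrays lay above the others, widely in mice 1 and 2 and by 0.63 in mouse 3. The means were 6.53 ± 2.30 and 3.56 ± 0.064 (SD, n = 3), a 7.83-fold difference, or 2.97 log2 units (SE 1.08). The lower mean is below the array medians and near the level of the dim second probe set of this gene, so the fold is uncertain in size. By limma the unadjusted p = 0.0326 and the adjusted p = 0.539. Leaving out labelled tumorigenic mouse 1 lowered the difference to 1.81 log2 units, and the labelled tumorigenic array of mouse 3 alone gave 0.70. A second, dim probe set of Cx3cr1 showed no such pattern: it read 3.24 to 3.57 on all 6 arrays, with a log2 difference of -0.033, and the mean of both probe sets gave 1.47. The ligand Cx3cl1 differed little on its brightest probe set, at 5.95, 6.21 and 6.14 under the tumorigenic and 6.35, 6.35 and 5.98 under the nontumorigenic label (log2 difference -0.13, limma adjusted p = 0.859). The 4 probe sets of Cx3cl1 gave between -0.50 and -0.073.

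Ccr1, a receptor for Ccl3, Ccl5 and related CC chemokines, followed the same arrays. It read 6.17, 4.56 and 2.44 under the tumorigenic and 2.26, 2.17 and 2.03 under the nontumorigenic label. The labels did not overlap, but only mice 1 and 2 rose above the dim cut of 2.98. The means were 4.39 ± 1.87 and 2.15 ± 0.11 (SD, n = 3), which are 2.24 log2 units apart (SE 0.88). By limma the unadjusted p = 0.0439 and the adjusted p = 0.572, and a dim lower mean makes the size uncertain. Without the labelled tumorigenic array of mouse 1 it was 1.35, and that of mouse 3 alone gave 0.29. The other probe set of Ccr1 read 5.08, 3.55 and 2.36 against 2.42, 2.09 and 2.17. It had the same order within the tumorigenic label and a log2 difference of 1.44, but its mouse 3 value fell inside the range of the other label.

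Ccrl2 was raised in mice 1 and 2 and turned the other way in mouse 3. It read 9.19, 8.60 and 5.10 on the arrays labelled tumorigenic and 4.94, 6.28 and 6.55 on those labelled nontumorigenic. The labels overlapped only through mouse 3, where the labelled tumorigenic array was lower by 1.44 log2 units. Means of 7.63 ± 2.21 and 5.92 ± 0.86 (SD, n = 3) lay 1.71 log2 units apart (SE 1.11), with adjusted p = 0.708 by limma. Without the labelled tumorigenic array of mouse 3 it was 2.97, and that array alone gave -0.82. The labelled nontumorigenic values were above the dim cut on all 3 arrays. Chemerin, the Ccrl2 ligand encoded by Rarres2, read 10.16, 11.05 and 9.14 against 8.62, 9.64 and 8.59. Its difference was 1.17 log2 units (SE 0.54, adjusted p = 0.627 by limma), and the labels overlapped. Mouse 3 was not turned here, with a paired difference of 0.55. The labelled tumorigenic array of mouse 3 lay below the labelled nontumorigenic array of mouse 2. The 3 probe sets of Rarres2 gave between 0.67 and 1.21.

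Ccr2, the receptor for Ccl2 that releases monocytes from bone marrow, was raised on 1 array. It read 6.56, 2.37 and 2.30 under the tumorigenic and 2.19, 2.15 and 2.35 under the nontumorigenic label. Only labelled tumorigenic mouse 1 lay above the dim cut, and the other 5 arrays lay within 0.22 of each other. Its label means lay 1.51 log2 units apart (SE 1.15, adjusted p = 0.755 by limma), or 0.10 without that array. A second probe set gave 5.28 on that array and 1.97 to 2.43 on the others. The remaining probe sets of Ccr2 were dim, at 2.78 and 2.49 on that array, and had log2 differences of 0.12 and -0.020. The ligand Ccl2 was present on all arrays, at 7.57, 7.83 and 5.80 against 6.91, 7.46 and 6.45, with overlapping labels and a log2 difference of 0.13 (limma adjusted p = 0.966).

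Ccr7 and Cxcr2 showed no level that stood clear of the dim end of the arrays. Ccr7 read 3.22, 3.10 and 3.13 under the tumorigenic and 2.90, 3.18 and 3.11 under the nontumorigenic label, with overlapping labels. The labels lay 0.086 log2 units apart, and the 95% interval ran from -0.29 to 0.46 (adjusted p = 0.899 by limma). Leaving out mouse 1 turned the sign (-0.031). Cxcr2 read 2.48, 2.66 and 2.36 against 2.48, 2.62 and 2.42, a plain difference of -0.0041. Dim values may hide true differences, so these values set no bound on transcripts below the reach of the probes. Of the 4 neutrophil markers tested 1, S100a9, had an unadjusted p below 0.05, as higher, beside 5.23% of all genes. S100a9 read 6.35, 6.69 and 4.97 against 4.05, 4.78 and 4.51, while its partner S100a8 read 6.06, 6.54 and 4.46 against 4.58, 6.40 and 6.70. Csf3r, Mpo and Elane, named after their values were seen, had means below the dim cut. The B cell markers tested lay between 2.92 and 3.75.

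**Figure D2:**
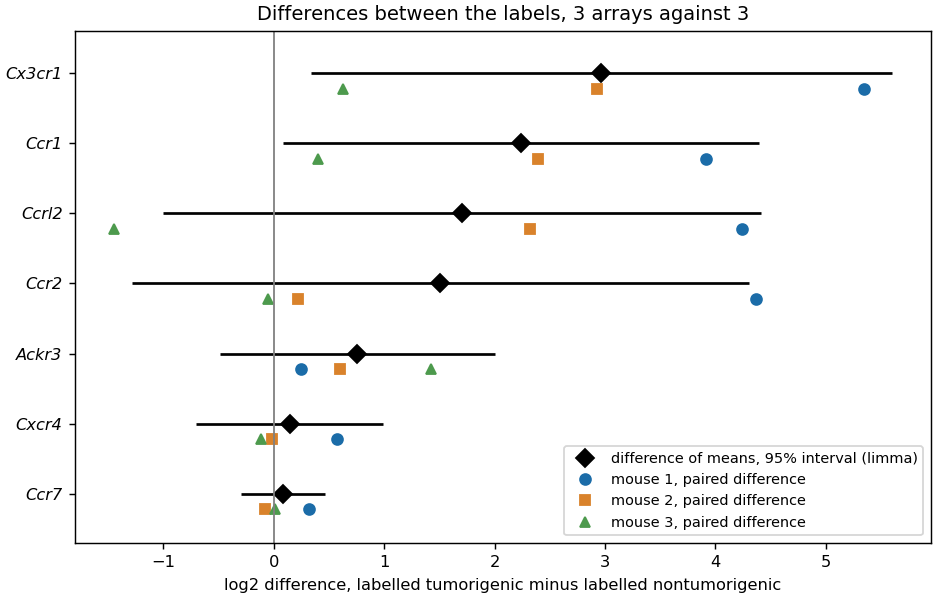
Log2 difference of the 7 tested receptors, labelled tumorigenic minus labelled nontumorigenic; diamonds with bars are limma estimates with 95% intervals and coloured symbols are the differences within each mouse. Intervals of Cx3cr1 and Ccr1 lie above 0 before any adjustment for the number of genes, and mouse 3 is the lowest of the 3 mice for all receptors shown but Ackr3 and Ccr7.

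The raised receptors can be described by array. A rise was taken as more than 1 log2 unit above the remaining arrays, a description chosen after the values were seen. Cx3cr1, Ccr1 and Ccrl2 met it for labelled tumorigenic mice 1 and 2 against the other 4 arrays, which is 3 of 7 receptors, beside 1.44% of all genes and 11 of 13 macrophage and monocyte markers. Among these markers Csf1r, the receptor for the macrophage growth factor, read 12.47, 11.29 and 7.12 against 4.86 to 5.89, while Cd14, the endotoxin coreceptor, was bright in both populations (9.14, 8.49 and 6.78 against 8.11 to 8.53) and did not meet it. Ccr2 was raised in labelled tumorigenic mouse 1 and not mouse 2, a pattern met by 1.71% of all genes and by 6 of 8 T and NK cell markers. Among those, Cd3e, a chain of the T cell receptor complex, read 10.28 on that array and 6.95 and 3.50 in labelled tumorigenic mice 2 and 3. On the labelled nontumorigenic arrays Cd3e was also well above the dim cut, at 7.05 to 7.29, and its log2 difference was -0.25. Cd8a, a coreceptor of cytotoxic T cells, read 8.25 on the array of labelled tumorigenic mouse 1, against 4.13 to 4.44 on the others. No endothelial, fibroblast, luminal or basal marker met either description, but other leukocyte markers did. The description for mice 1 and 2 was also met by 1 of 7 dendritic cell, 1 of 4 neutrophil and 1 of 8 T and NK cell markers. That for mouse 1 was also met by 1 of 7 dendritic cell markers. Ccr1 and Ccr2 passed the dim cut only through the arrays on which they are counted as raised, and Cxcr2, below the cut, is not counted. The receptor counts by array are therefore a description and no support. The part of leukocyte transcripts in the receptor values was not tested. In sorted bulk samples, fewer cells of a type and less RNA per cell cannot be told apart.

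**Figure D3:**
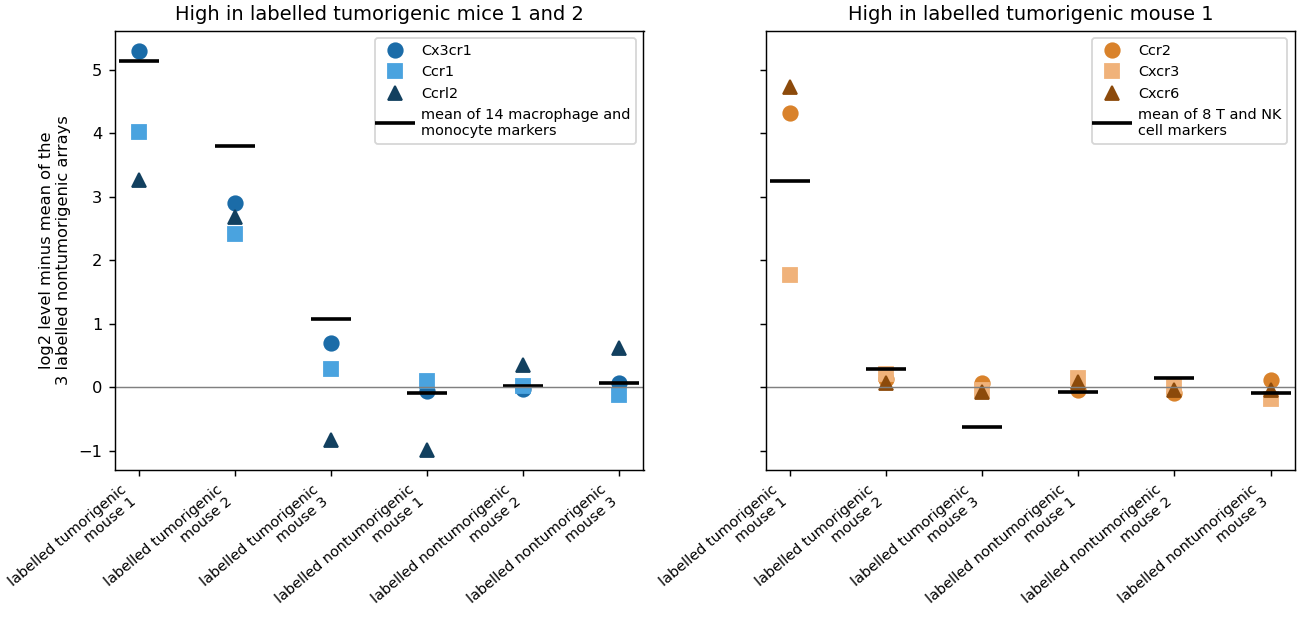
Log2 level on each array minus the mean of the 3 labelled nontumorigenic arrays, for Cx3cr1, Ccr1 and Ccrl2 with the mean of 14 macrophage and monocyte markers (left) and for Ccr2, Cxcr3 and Cxcr6 with the mean of 8 T and NK cell markers (right). At left the first and second arrays stand above the rest; at right the first array alone does.

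For each tested receptor, the other genes with the closest profile were found by the mean absolute difference over the 6 arrays, after each gene was centred on its own mean. Closest to Cx3cr1 were the C-type lectin receptor Clec4n, at 0.12 log2 units, and C3ar1, the receptor for complement fragment C3a, at 0.16. Closest to Ccr1 were Clec7a, the receptor for fungal beta-glucan, and Cyth4, both at 0.12. Closest to Ccr2 were the GTPase Gimap7 and the T cell coreceptor Cd8a, at 0.12 and 0.14, and closest to Ccrl2 were Pi16 and the leukocyte tetraspanin Cd53, at 0.35 and 0.36. For Cxcr4 they were Tnks1bp1 and the kinase Camk1d, at 0.059 and 0.085, and for Ackr3 they were Larp6 and the sodium channel Scn3a, at 0.14 and 0.15. Ccr7 was nearest to Usp32 and Mep1a, at 0.018 and 0.022, where small distances follow from profiles that are nearly flat. With 6 arrays from 3 mice such likeness is a description.

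Among the ligands of the receptors, several CC chemokines were high on the pair of arrays where Ccr1 was high. Of 19 listed ligands 17 were on the array and 14 were tested. Of the tested, 12 had positive differences, beside 50.7% over all genes, with a median of 0.91, and 0 passed after adjustment. Those with an unadjusted p below 0.05 were 4 as higher and 0 as lower, beside 5.23% and 3.27% of all genes. The 4 as higher, Ccl3, Ccl6, Ccl8 and Ccl9, also did not overlap between the labels, beside 6.9% of all genes as higher. Ccl3 and Ccl12 passed the dim cut only through labelled tumorigenic mice 1 and 2, with their other 4 arrays below it, so their place in these counts is a description and the sizes of their differences are uncertain. Ccl3, a ligand of Ccr1, read 7.96, 7.50 and 2.90 against 2.56, 2.63 and 2.35, a gap of 3.61 log2 units (SE 1.31) that did not pass after adjustment (adjusted p = 0.539 by limma). Ccl8 read 10.88, 9.18 and 6.28 against 4.15, 4.13 and 4.83, a gap of 4.41 log2 units (SE 1.11, adjusted p = 0.443 by limma). It was the only ligand with labelled tumorigenic mouse 3 more than 1 unit above all labelled nontumorigenic arrays. Ccl6 had a log2 difference of 4.09, Ccl9 of 2.89 and Ccl12, a Ccr2 ligand, of 2.92, with limma adjusted p of 0.521, 0.536 and 0.608. A second probe set of Ccl9 gave 0.011, and one of Ccl6 gave 2.78. The array description above was met for mice 1 and 2 by 7 of the 14 ligands, Ccl3 and Ccl12 among them, beside 1.44% of all genes.

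The labels overlapped for the neutrophil attractants that bind Cxcr2 and were tested. Cxcl1 read 11.60, 11.83 and 10.05 against 11.02, 11.58 and 10.87, and Cxcl2 10.32, 10.09 and 6.68 against 8.16, 9.14 and 7.996. For both, mouse 3 was the lowest array under the tumorigenic label and lay below all labelled nontumorigenic arrays. Their log2 differences were 0.0050 and 0.60 (limma adjusted p = 0.998 and 0.891). Cxcl5 had -0.39, and Cxcl3 and Ppbp had means below the dim cut.

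**Figure D4:**
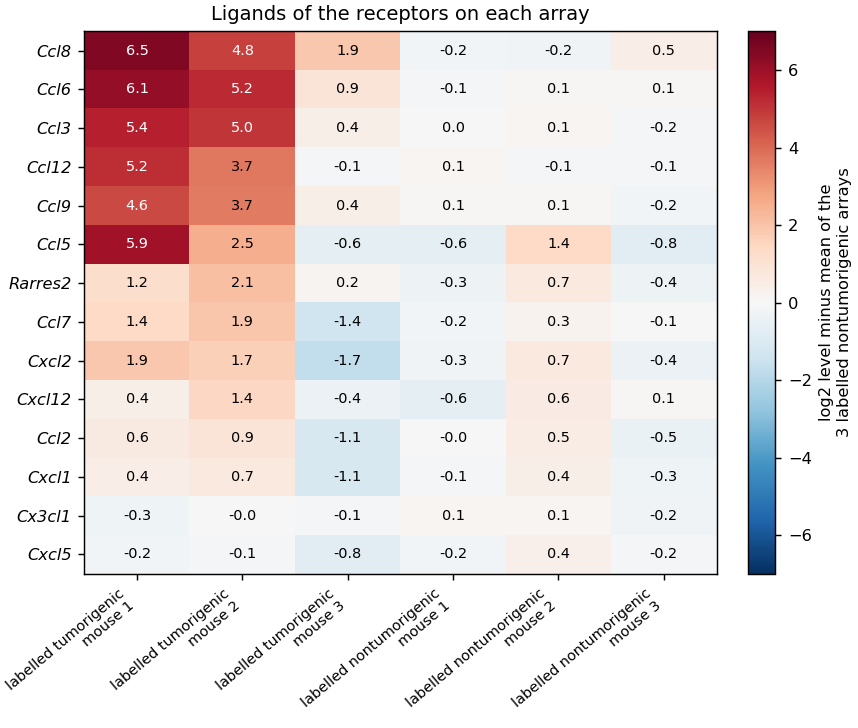
Log2 level of the 14 tested ligands on each array minus the mean of the 3 labelled nontumorigenic arrays, in colour and as printed values. Ccl8, Ccl6, Ccl3, Ccl12, Ccl9 and Ccl5 are high on the arrays labelled tumorigenic of mice 1 and 2, while Cx3cl1 and Cxcl5 stay near 0 or below.

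Other receptors of the family were mostly dim. Of 15 listed, 13 were on the array and 7 were tested, of which 0 had an unadjusted p below 0.05 and 0 were apart between the labels, with a median log2 difference of 0.065. Ackr4, an atypical receptor that scavenges Ccr7 ligands, was the exception in level: it read 9.74, 10.15 and 9.97 against 8.96, 10.26 and 9.47, with overlapping labels and a gap of 0.39 log2 units (SE 0.35, adjusted p = 0.783 by limma). Its 3 probe sets gave between 0.073 and 0.43. Cxcr3, a receptor of activated T and NK cells, read 5.15 on the array labelled tumorigenic of mouse 1 and 3.20 to 3.58 elsewhere, a log2 difference of 0.65 (limma adjusted p = 0.749). Cxcr6, named after its values were seen, read 6.90 on the same array and 2.10 to 2.25 elsewhere, and was not tested since its mean of 2.96 lay below the dim cut. That probe set of Cxcr6 had a log2 difference of 1.57, while its other gave 0.29. Cxcr3 and this probe set of Cxcr6 shared their high array with Ccr2. Ackr1, Ccr6, Ccr9 and Ccr10 had log2 differences between -0.11 and 0.10.

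Some signal transducers downstream of the receptors were also higher under the tumorigenic label before adjustment. Of 24 listed genes 22 were on the array and 21 were tested. Of these, 16 had positive differences with a median of 0.64, beside 50.7% and a median of 0.0051 over all genes. An unadjusted p below 0.05 was found for 3, all as higher, beside 5.23% of all genes as higher, and 0 passed after adjustment. Gnai2, the inhibitory G protein subunit through which most of these receptors act, read 10.12, 10.04 and 9.63 against 9.58, 9.05 and 9.25, and its labels did not overlap (log2 difference 0.64, SE 0.22, limma adjusted p = 0.532). The gamma subunit Gng2 read 9.65, 8.65 and 8.02 against 7.77, 7.43 and 7.43 (log2 difference 1.23, limma adjusted p = 0.522). Pik3r5, a subunit of the phosphoinositide 3-kinase activated by G protein beta-gamma, had a log2 difference of 1.21 (limma adjusted p = 0.558). Rgs1 and Rgs2, which shorten G protein signals, had 2.97 and 0.81, and Arrb2, an arrestin of receptor uptake, had 1.49 (limma adjusted p of 0.592, 0.592 and 0.608). The 4 probe sets of Rgs2 gave between 0.050 and 0.81. Rgs1 again split by array, at 8.92, 7.21 and 3.74 against 3.56 to 3.80.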

How the data were processed

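The authors deposited log2 expression values per probe set, and the submitters' processing notes name RMA, whose version is not given in the sources used here. RNA was amplified and biotin-labelled, per the labels' protocols. The deposited values reach 13.87, as on a log2 scale. RMA sets the arrays to a common distribution, so a shift shared by most transcripts would be removed, and 16689 of 45101 probe sets hold the same value on at least 2 arrays. Arrays have no sequencing depth; their number limits the precision.

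After 64 control probe sets, the 25% of probe sets with the lowest means (below 2.98) were left out, which kept 33778 and gave 15027 genes, each read from its probe set with the highest mean. Symbols came from the platform annotation; of 34945 probe sets with 1 symbol, 34741 were matched by Entrez ID to RefSeq with none changed. The labels were compared with limma 3.58.1 in R 4.3.3 (lmFit, eBayes), with 6 arrays and no covariate and two-sided p-values adjusted by Benjamini-Hochberg. The fit was tried on simulated data in which both labels had the spread of the labelled nontumorigenic arrays. That trial does not cover genes with unequal spread, such as Cx3cr1 with SDs of 2.30 and 0.064. Differences are labelled tumorigenic minus labelled nontumorigenic means. With 3 arrays against 3, an exact permutation test cannot go below 0.1 and was not used.

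Mouse numbers pair the arrays, since both populations with a number are from the same animal. Deviations of same-mouse arrays from their label means correlated across genes at 0.079, 0.14 and 0.086. Between different mice under opposite labels the correlations ran from -0.083 to -0.010. Blocking on the mouse was among the alternatives. The text names every member, ligands of members, up to 6 genes of other lists by smallest p, the closest profiles and the 2 brightest genes of marker lists; others named are said to be chosen after their values were seen. The members, lists and rules were chosen with earlier results of these data known. Some list genes had no single-symbol probe set and were not analysed here.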

Additional observations from a re-analysis of the deposited data

How the results depend on the processing

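No receptor passed the adjusted threshold under any of the 18 alternatives tested for all genes: the mouse as a replicate block, other filters, normalisations, priors, weights and probe set choices, and leaving out each array or mouse. With the mouse as a replicate block 0 genes and 0 receptors passed, 2 receptors had an unadjusted p below 0.05, and the block changed no call. Over all genes 1 passed without a dim filter and 1 when the probe sets of a gene were averaged, Ramp2 in each case (named after its values were seen), and leaving out arrays or mice gave 0 to 18, the highest without labelled tumorigenic mouse 3. Receptors with an unadjusted p below 0.05, 2 as reported, numbered 1 without a dim filter, 1 with 50% of probe sets left out, which tests only 4 receptors, and 0 to 3 with arrays or mice left out. Receptors with labels apart, 2 as reported, numbered 1 with 50% left out and 2 to 4 with arrays or mice left out. The median difference of the receptors stayed positive, from 0.44 to 2.29 with arrays or mice left out. Signs turned for Ccr7 without mouse 1 (-0.031) and for Cxcr4 without labelled tumorigenic mouse 1 (-0.22) or without mouse 1 (-0.065). With a further alternative, chosen after seeing the data, of labelled tumorigenic mouse 3 alone against the other label, they turned for Cxcr4 (-0.22) and Ccrl2 (-0.82), and the median was 0.067. Leave-out values ran from 1.35 to 3.21 for Ccr1, from 0.083 to 2.29 for Ccr2, from 0.44 to 3.28 for Ccrl2, from 1.78 to 4.14 for Cx3cr1, from 0.25 to 1.13 for Ackr3, up to 0.17 for Ccr7 and up to 0.33 for Cxcr4. Causes were not tested. Dim signal limits Ccr1, Ccr2, Ccr7 and Cxcr2, and the labelled nontumorigenic values of Cx3cr1.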
